A study of Mus musculus with 7 samples.

Results

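The genes described here encode proteins of the cytoplasmic ribosome and paralogs named after them. They were taken by symbol: Rpl or Rps followed by a number, or Rplp0, Rplp1 and Rplp2, with the closing letters that mark a paralog, and with at least 1 count in the table. Of 29777 genes listed, 81 symbols matched and 76 of these had counts, 47 of the large and 29 of the small subunit. Rpsa, Fau and Gnb2l1, whose products also sit on the ribosome, have symbols outside the pattern and are given apart.

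RNA was sequenced from GFP-positive cells that had been sorted out of E11.5 dorsal root ganglia of the neck, from mice of strain ICR. The Runx3-P2 allele expresses GFP in TrkC neurons, which sense the position of the limbs. There were 3 libraries from Runx3-P2+/- heterozygotes and 4 from Runx3-P2-/- homozygotes, so both groups carry the GFP allele and neither is wild type, although the file headers call the heterozygotes WT. The design speaks of pools of 4. Each library has a label date of its own, but nothing says outright that libraries came from separate litters. Homozygote library 1 has the earliest date, with the month used below for heterozygote library 1, and homozygote library 3 the latest. The part of date was not tested. The p-values below therefore speak of variation among libraries, which may be technical.

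Each library held 11184237 to 13986835 counts. Runx3, the targeted gene, averaged 85.3 ± 15.7 CPM (counts scaled to a common library size; SD, n = 3) in heterozygotes and 9.17 ± 3.06 CPM (SD, n = 4) in homozygotes, without overlap. By edgeR's adjusted p it was called with all libraries (0.00593) and missed the threshold without heterozygote library 2 (0.0885) or 3 (0.0576). All 15 sensory neuron markers found in the table had counts in every library. Heterozygote library 3 and homozygote library 3 stood apart from the rest of their genotypes: on a first principal component with 63.0% of the variance they lay at -68.3 and 65.9, and the other libraries between -29.3 and 20.6. The main shares, medians and most lists are given with and without these libraries, and so are many of the single genes. Values without them were chosen for print after the data were seen.

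A ribosome is built in the nucleolus from ribosomal RNA and a fixed set of proteins, nearly all present in a single copy, so cells make these proteins in matched amounts. Much of that matching is set on the messenger RNA: ribosomal protein mRNAs of mammals usually begin with a cytosine followed by a run of pyrimidines, the 5′ terminal oligopyrimidine (TOP) motif, through which the growth kinase mTOR controls their translation. A neuron that extends an axon draws on this supply. In mouse genomes these genes have left many processed pseudogenes, copies of the spliced mRNA set back into the chromosomes, which matters for short reads.

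The letters around the annotated start are shown for 8 genes, in order to show the TOP motif, how far it varies, and a start without it. Each line runs 5′ to 3′ from 10 bases before the start, so the 11th base is the start itself, and capitals mark the longest unbroken run of C and T that lies within 20 bases of the start, as far as the line reaches.
Rpl15: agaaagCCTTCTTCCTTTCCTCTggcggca
Rpl35: ccgCCCTTTCCTCTTTCTCTCgaaccaggc
Rpl38: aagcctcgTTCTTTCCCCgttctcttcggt
Rps6: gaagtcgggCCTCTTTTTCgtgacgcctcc
Rps27: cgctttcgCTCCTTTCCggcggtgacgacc
Rplp2: cagcgTCTTCCTTTCgccgccggacgccgc
Rps4x: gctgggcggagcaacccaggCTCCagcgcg
Rps3: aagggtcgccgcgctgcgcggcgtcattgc
They come from RefSeq on GRCm38.p6, at chr14:18270967-18270996 (minus strand) for Rpl15, chr2:39005112-39005141 (minus) for Rpl35, chr11:114668570-114668599 (plus) for Rpl38, chr4:86857348-86857377 (minus) for Rps6, chr3:90213629-90213658 (minus) for Rps27, chr7:141447641-141447670 (plus) for Rplp2, chrX:102189372-102189401 (minus) for Rps4x and chr7:99483690-99483719 (minus) for Rps3. The counts were made on another build, mm9, and these windows were joined to them by symbol alone.

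Sequence around the start was at hand for 57 of the 76 genes. In Rpl15 the run of C and T was 17 bases long and in Rpl35 it was 18, and in both the start lay inside it at a C. Rps4x had a run of 4 bases after the start, and the longest of Rps3 had 3 bases and lies before the letters shown. A start at C with at least 4 further pyrimidines was found in 11 of the 57 genes (19.3%), against 2.51% of 32851 annotated starts and 2.21% of 21263 starts of protein-coding genes. A run of at least 8 pyrimidines within 20 bases of the start was found in 27 (47.4%), against 5272 of the 32851 starts. An annotated start can lie some bases from the start used in these cells, and the run of Rpl7a, 21 bases long, is an example that crosses the start without a C at it.

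Other letters known from these promoters were searched on both strands over 250 bases before and 50 after the start. CCGGAAG, bound by ETS factors, was in 23 of 57 (40.4%), against 8.86% of all starts and 11.6% of protein-coding ones. GGGCGG, bound by SP1, was in 34 (59.6%), against 35.7% of all starts and 46.2% of protein-coding ones. AAGATGGC, bound by YY1, was in 5 (8.77%), against 2.75% of all starts and 3.05% of protein-coding ones. A match here is only a match of letters.

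The genes' counts spanned a wide range although their proteins are needed in nearly equal amounts. Near the top for its length stood Rpl32, with a mean of 1626 CPM per kilobase of transcript. Rps9 was at 1318, Rpl8 at 1285 and Rpl4, which lines the tunnel through which the new chain leaves, at 1270 CPM per kilobase. At the other end of the genes with a mean log2 CPM of at least 1 stood Rpl5 at 1.18, Rpl10a at 2.71 and Rpl10 at 2.78 CPM per kilobase. Proteins of both ends of this order belong to the standard ribosome.

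In unscaled terms 33 of the 81 symbols were under 10 CPM, 27 were over 100 CPM and 4 were over 1000 CPM. The 5 genes with most counts held between 46.98% and 50.38% of all counts of the group in every library. Rpl4 alone gave 13.3% of them and Rps3, a small-subunit protein at the entry of the mRNA channel that was singled out after its values were seen, gave 11.9%. Of the 76 genes, 64 passed the filter on low counts, 38 of the large and 26 of the small subunit. The remaining 12 had from 6 to 71 counts over the 7 libraries and were not tested, among them Rpl9, Rpl17, Rpl23a, Rpl24, Rpl26, Rpl27, Rpl29, Rpl36a, Rpl39l, Rps28 and Rps29.

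No count at all was listed for 5 symbols, among them Rps2 and Rpl28, which encode core proteins of the ribosome, and the tissue-specific paralogs Rpl3l and Rpl10l. Over the 86915907 counts of the 7 libraries, a count of 0 allows a level of up to 0.0345 CPM, by counting error only. Rps2 and Rpl28 are named because they were at 0.

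The median level was highest for genes with the fewest copies in the genome. Windows of 50 bases, the length of the reads, were taken along each gene's transcript and compared with all annotated transcripts, allowing 2 mismatches. The median symbol matched 15 pseudogenes, and 30.3% of its windows were found in no other gene. Symbols with at most 5 matching pseudogenes had a median of 481 CPM per kilobase (14 symbols). The median was 33.9 for those with 6 to 15 (29 symbols), 24.1 for those with 16 to 30 (24 symbols) and 21.9 for those with over 30 (14 symbols). Rps3 had 2 such pseudogenes and 83.4% of its windows to itself, whereas Rps2 had 102 and 6.43%.

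Exceptions stood on both sides. Rpl7a had 169 matching pseudogenes and 5.67% of windows to itself, yet 108 CPM per kilobase. Rpl28, with 10 pseudogenes and 48.3% of windows to itself, had no count. Of the 14 symbols with at most 5 matching pseudogenes, 2 were under 10 CPM. These were Rpl3l, with 0 pseudogenes and no count, and Rpl39l, with 4 pseudogenes and 0.33 CPM per kilobase. Across the 81 symbols Spearman's rho of the level was -0.34 with the number of pseudogenes and 0.15 with the share of windows found nowhere else, given as a description across genes that share libraries. The sources used here do not say how reads with several matches were counted, and the part of the copies in the levels was not tested. In addition 4 symbols share exon bases with another gene on the same strand and 9 with one on the other strand, among them Rpl32 (Cand2), Rpl35 (Arpc5l and Wdr38), Rpl5 (Fam69a) and Rpl12 (Lrsam1).

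**Figure D1:**
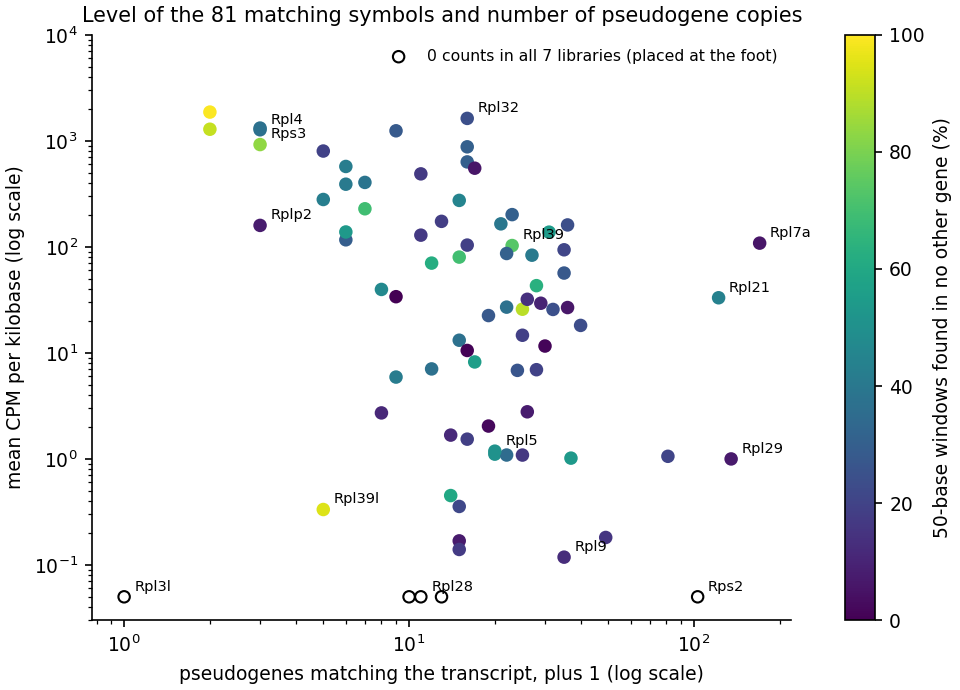
Mean CPM per kilobase of transcript (log scale) against the number of pseudogenes that match at least 1 of the transcript's 50-base windows, plus 1 (log scale), for the 81 matching symbols; colour gives the percentage of windows found in no other gene. Most symbols with few pseudogenes, such as Rps3 and Rpl4, lie at the top left, but Rpl3l and Rpl39l lie low on the left. The 5 symbols with 0 counts are open circles at the foot.

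The question put to these counts was whether the supply of ribosomal protein mRNA differed between TrkC neurons of the 2 genotypes. As a group the 76 genes held a slightly larger share of the homozygote libraries. The share was 1.283%, 1.427% and 1.198% in heterozygote libraries 1 to 3, and 1.499%, 1.432%, 2.014% and 1.493% in homozygote libraries 1 to 4. Means were 1.30% ± 0.12 (SD, n = 3) and 1.61% ± 0.27 (SD, n = 4), a difference of 0.307 percentage points. Heterozygote library 2 and homozygote library 2 nearly met, and homozygote library 3 lay far above all others.

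Large-subunit genes held 0.680% ± 0.052 of the counts in heterozygotes and 0.844% ± 0.133 in homozygotes, and small-subunit genes 0.622% ± 0.065 and 0.766% ± 0.140 (SD, n = 3 and 4). The genotypes overlapped for the small subunit and not for the large one. Without both libraries 3 the difference was 0.071 percentage points for the large and 0.048 for the small subunit, and the large one still did not overlap. Without homozygote library 3 the difference for all 76 genes was 0.172 percentage points, and without both libraries 3 it was 0.119. In bulk RNA a changed mix of cells and a changed level per cell cannot be told apart.

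**Figure D2:**
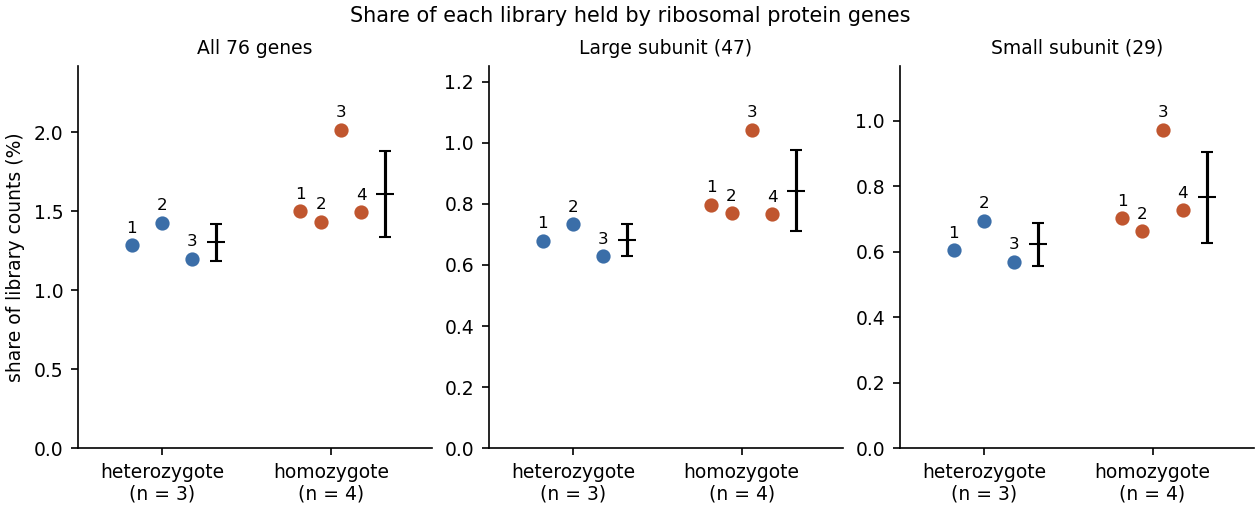
Share of each library's counts (%) held by the 76 genes, the 47 of the large and the 29 of the small subunit; points are libraries labelled by replicate, and bars are the mean ± SD of each genotype. Homozygote library 3 is the highest in each panel, at 2.014% for all 76 genes, and the other libraries lie between 1.198% and 1.499%.

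Gene by gene, no ribosomal protein gene passed the test: 0 of 64 were called at an adjusted p below 0.05 (edgeR quasi-likelihood test, Benjamini-Hochberg over all genes), beside 7 of the 14040 genes tested (0.0499%). That number for all genes ran from 1 to 27 when each library was left out in turn; the lowest came without heterozygote library 2 or 3 and the highest without homozygote library 3. At an unadjusted p below 0.05, 7 of the 64 were higher in homozygotes (10.9%, against 7.75% of all genes) and 1 was lower (1.56%, against 4.88%). DESeq2 called 1 of 64, Rplp2, against 4.77% of all genes. The authors' deposited table gave an adjusted p below 0.05 to 2 of the 59 genes with such a value (3.39%), Rplp2 and Rps4x, against 4.69% of all genes in it.

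The log2 fold change (homozygote over heterozygote) was above 0 in 48 of the 64 genes (75%), against 48.3% of all genes tested. Its median was 0.22 for the 64 and -0.02 for all genes, and it ran from -1.15 to 1.10. Large and small subunit had medians of 0.22 and 0.22. Among the 39 genes with a mean log2 CPM of at least 5, here called abundant, 36 lay above 0 with a median of 0.24, against 47.1% of the 5840 genes of that level. The 25 genes below that level had a median of -0.04 and split into 12 above and 13 below 0. With no filter on counts the median over the 76 genes was 0.22.

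**Figure D3:**
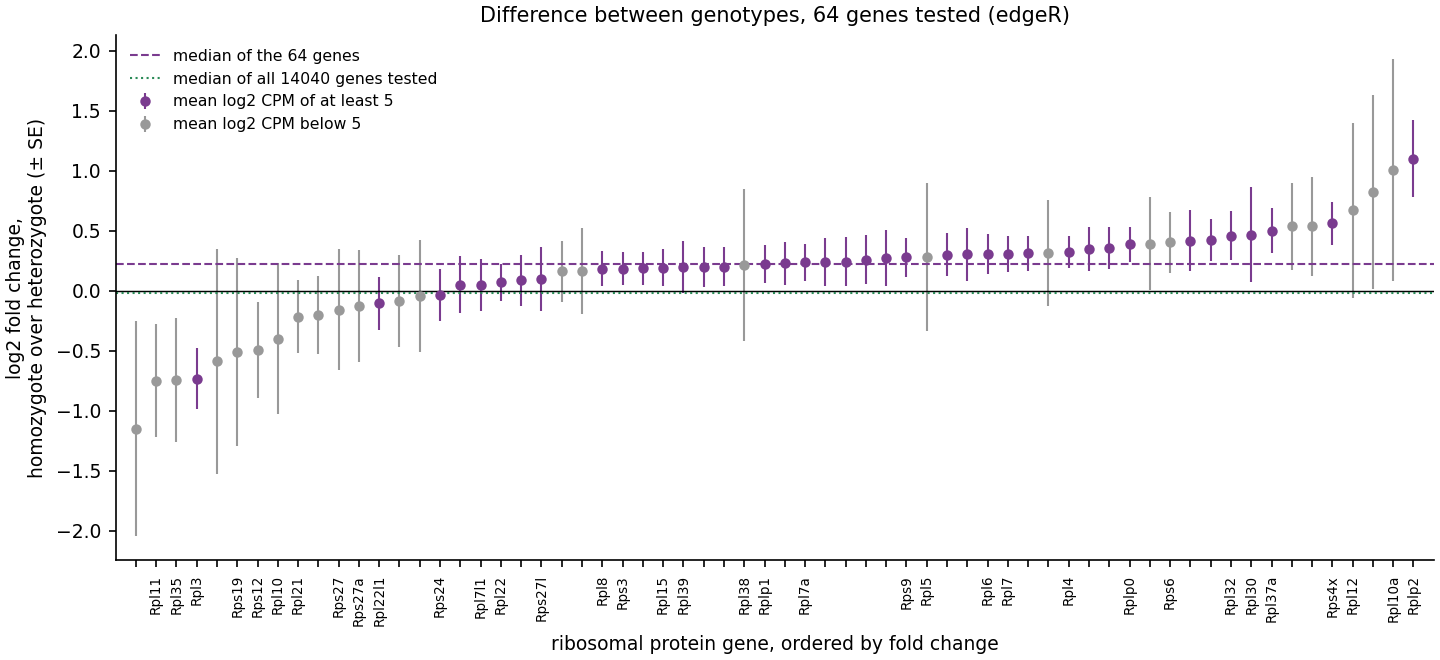
Log2 fold change of homozygote over heterozygote (edgeR, bars are SE) for the 64 ribosomal protein genes tested, ordered by value; purple marks a mean log2 CPM of at least 5 and grey a lower level, with labels for genes named in the text. Most purple points lie between 0 and 0.6 near the dashed median of 0.22, while Rplp2 stands highest and Rpl3 lowest among them.

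Libraries of the 2 genotypes did not overlap for 11 of the 64 genes, 10 with higher homozygotes (15.6%, against 6.6% of all genes) and 1 with lower homozygotes (1.56%, against 5.78%). Among the 10 were Rps4x, Rpl37a, Rplp0, Rpl4 and Rpl32 with Rpl6, Rpl7, Rpl7a and Rpl12, the last 4 of these listed because the count includes them. Of these Rpl12 was near the floor, with 15, 14 and 8 counts in heterozygotes and 20, 19, 24 and 20 in homozygotes. The gene with lower homozygotes was Rpl3. These counts depended on the libraries. Leaving out heterozygote library 2 gave 26 higher of 67 and 2 lower (all genes 10.7% and 10.5%), leaving out homozygote library 2 gave 20 higher of 64 (all genes 8.75%), and leaving out heterozygote library 3 gave 5 lower of 65 (7.69%, all genes 8.58%). Leaving out both libraries 3 gave 13 higher and 8 lower of 64 (20.3% and 12.5%), against 1653 and 1697 of the 14379 genes then tested, so that the lower ones (all genes 11.8%) were near the background.

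The stalk of the large subunit recruits the factors that drive translation and consists of Rplp0, Rplp1 and Rplp2. Rplp2 had the smallest p of the group. It stood at 60.3, 33.4 and 27.7 CPM in the heterozygotes and at 57.6, 85.5, 118 and 86.3 CPM in the homozygotes. The genotypes overlapped, since heterozygote library 1 exceeded homozygote library 1. On the log2 scale the difference was 1.10 ± 0.32 (SE; adjusted p = 0.179, edgeR), and 1.12 with an adjusted p of 0.0198 by DESeq2. Without both libraries 3 it was 0.71 (adjusted p = 0.693, edgeR). Only 7.53% of its windows were found in no other gene.

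Rplp0, the base of the stalk, gave 747, 746 and 697 CPM in heterozygotes and 965, 859, 1149 and 846 CPM in homozygotes. Every homozygote library was above every heterozygote one (log2 fold change 0.39 ± 0.15, SE; adjusted p by edgeR 0.307). Rplp1, the partner of Rplp2, averaged 251 ± 22.1 and 293 ± 40.6 CPM (SD, n = 3 and 4; log2 fold change 0.22 ± 0.16, SE; adjusted p by edgeR 0.631). None of these stalk genes passed the test.

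Among small-subunit genes Rps4x, an X-linked gene, had the smallest p. Heterozygotes had 81.1, 85.4 and 72.1 CPM and homozygotes 105, 101, 129 and 135 CPM. The groups did not overlap and homozygote libraries 3 and 4 were the highest (log2 fold change 0.56 ± 0.18, SE; adjusted p by edgeR 0.211). In the authors' deposited table its log2 fold change was 0.57 with an adjusted p of 0.0339. The DESeq2 fit made here gave an adjusted p of 0.0621.

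Rps9 averaged 882 ± 92.4 and 1071 ± 175 CPM (SD, n = 3 and 4), and its ranges overlapped. Rps6, whose protein is phosphorylated by S6 kinase downstream of mTOR, averaged 23.7 ± 4.21 and 31.4 ± 5.43 CPM (log2 fold change 0.40 ± 0.26, SE; adjusted p by edgeR 0.58). Both lay on the same side as the stalk genes, and neither passed the test.

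Large-subunit genes of the core gave similar sizes. Rpl4 had 1788, 1718 and 1617 CPM in heterozygotes and 2232, 2056, 2381 and 1881 CPM in homozygotes. The groups stood clear of each other (log2 fold change 0.32 ± 0.13, SE; adjusted p by edgeR 0.34). Rpl37a averaged 124 ± 7.52 and 175 ± 37.8 CPM (SD, n = 3 and 4) with no overlap (log2 fold change 0.50 ± 0.19, SE; adjusted p by edgeR 0.297). Rpl32 had 701, 720 and 655 CPM in heterozygotes and 768, 759, 1343 and 939 CPM in homozygotes, where library 3 was far above the others; its log2 fold change was 0.46, and 0.21 without both libraries 3. Rpl8, which lies by the peptidyl transferase centre, averaged 1015 ± 32.8 and 1153 ± 160 CPM, and heterozygote and homozygote ranges overlapped.

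Rpl3, a protein close to the peptidyl transferase centre, went the other way. Its levels were 56.0, 38.8 and 45.6 CPM in heterozygotes and 24.3, 36.1, 31.1 and 21.2 CPM in homozygotes. Every homozygote library was below every heterozygote one (log2 fold change -0.73 ± 0.26, SE; adjusted p by edgeR 0.253). It was the single abundant gene whose libraries separated downwards. Its transcript matches 35 pseudogenes and has 5.99% of its windows to itself, and which copies its counts come from was not tested.

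The next genes on that side were low in count. Rpl11 gave 124, 90 and 63 counts in heterozygotes and 36, 77, 72 and 45 in homozygotes (log2 fold change -0.75 ± 0.47, SE; adjusted p by edgeR 0.578). Rpl5, its partner in the 5S ribonucleoprotein that binds Mdm2 when ribosome assembly fails, gave 26, 20 and 31 counts against 49, 29, 24 and 32. The genotypes overlapped for both. Rpl35 had 10.1 ± 7.98 CPM in heterozygotes, where library 2 at 19.3 CPM was far above the other 2, and 6.02 ± 1.05 CPM in homozygotes. Without that library its log2 fold change turned from -0.74 to 0.13. Rps12 (-0.49 ± 0.40) and Rpl21 (-0.21 ± 0.30) had adjusted p of 0.694 and 0.85 (edgeR).

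Some of these genes are known for a role in a given tissue or disease, and none of them passed the test. Rpl38, which in mouse is needed for skeletal patterning, had 23, 25 and 19 counts in heterozygotes and 29, 25, 31 and 25 in homozygotes. Rps19, mutated in human Diamond-Blackfan anaemia, varied within genotypes more than between them, from 5.97 to 47.1 CPM in heterozygotes and from 3.65 to 25.3 CPM in homozygotes. Its log2 fold change of -0.51 ± 0.78 turned to 0.99 without heterozygote library 3. Rps27 (-0.16 ± 0.50) and Rps27a, a fusion of ubiquitin with a ribosomal protein (-0.12 ± 0.47), gave 315 and 375 counts over all libraries. Rpl10, which joins the large subunit late in its assembly, gave 193 counts and -0.40 ± 0.63, and Rpl10a 169 counts and 1.01 ± 0.93.

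Paralogs named after a ribosomal protein were scarce or did not pass the test. Rpl22 averaged 264 ± 11.9 and 277 ± 40.5 CPM and its paralog Rpl22l1 66.9 ± 2.43 and 62.2 ± 15.7 CPM (SD, n = 3 and 4). Rps27l averaged 110 ± 11.4 and 117 ± 42.2 CPM, and Rpl7l1 177 ± 42.7 and 184 ± 39.1 CPM. Their log2 fold changes were 0.07, -0.10, 0.10 and 0.05, with SE from 0.16 to 0.27 (adjusted p from 0.912 to 0.959, edgeR). Rpl39l, known from the testis, had 16 counts, all in homozygote library 3, while Rpl39 had 5461 counts over the 7 libraries. The muscle paralog Rpl3l and the testis paralog Rpl10l had none.

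Relative to the group's own summed level the abundant genes varied less. The median standard deviation within genotypes over the 39 genes was 0.23 in log2 CPM and 0.12 in log2 of the gene's share of the group, a sum in which each gene itself takes part. Rpl6 had one of the smallest such values at 0.039 and Rpl30 the largest at 0.60. On this scale Rplp2 was 0.87 higher and Rpl3 1.02 lower in homozygotes, Rps4x 0.29 higher, Rpl22l1 0.41 lower and Rps24 0.33 lower. The other 34 genes lay within 0.25 of 0 on it. Rpl6, Rpl30 and Rps24 were picked here for these values.

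The height of homozygote library 3 ran through most of the group and nearly all of its abundant genes. It was the highest of the 7 libraries for 47 of the 64 genes (73.4%, against 20.3% of all genes tested) and for 36 of the 39 abundant ones (92.3%, against 15.4% of all genes of that level). Heterozygote library 3 was the lowest for 26 of the 39 (66.7%, against 13.8%). The mean log2 CPM of the 39 was 7.47, 7.53 and 7.32 in heterozygotes and 7.55, 7.56, 8.01 and 7.58 in homozygotes.

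Without both libraries 3 the median log2 fold change of the tested genes was 0.08, with 42 of 64 above 0 (65.6%, against 49.3% of all genes). For the abundant genes it was 0.09, against 0.03 for all genes of that level. Without homozygote library 3 alone the 62 genes then tested had a median of 0.13. Without both libraries 3 the log2 fold change was 0.26 for Rplp0, 0.10 for Rplp1, 0.30 for Rpl37a, 0.09 for Rpl8, 0.09 for Rps9, 0.19 for Rps6 and 0.06 for Rpl38. For genes on the other side it was -0.80 for Rpl3, -1.07 for Rpl11, -1.11 for Rpl35 and -0.85 for Rps12. It was 0.60 for Rpl5, -0.64 for Rpl10 and -0.25 for Rpl22l1. No ribosomal protein gene was called in either fit.

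**Figure D4:**
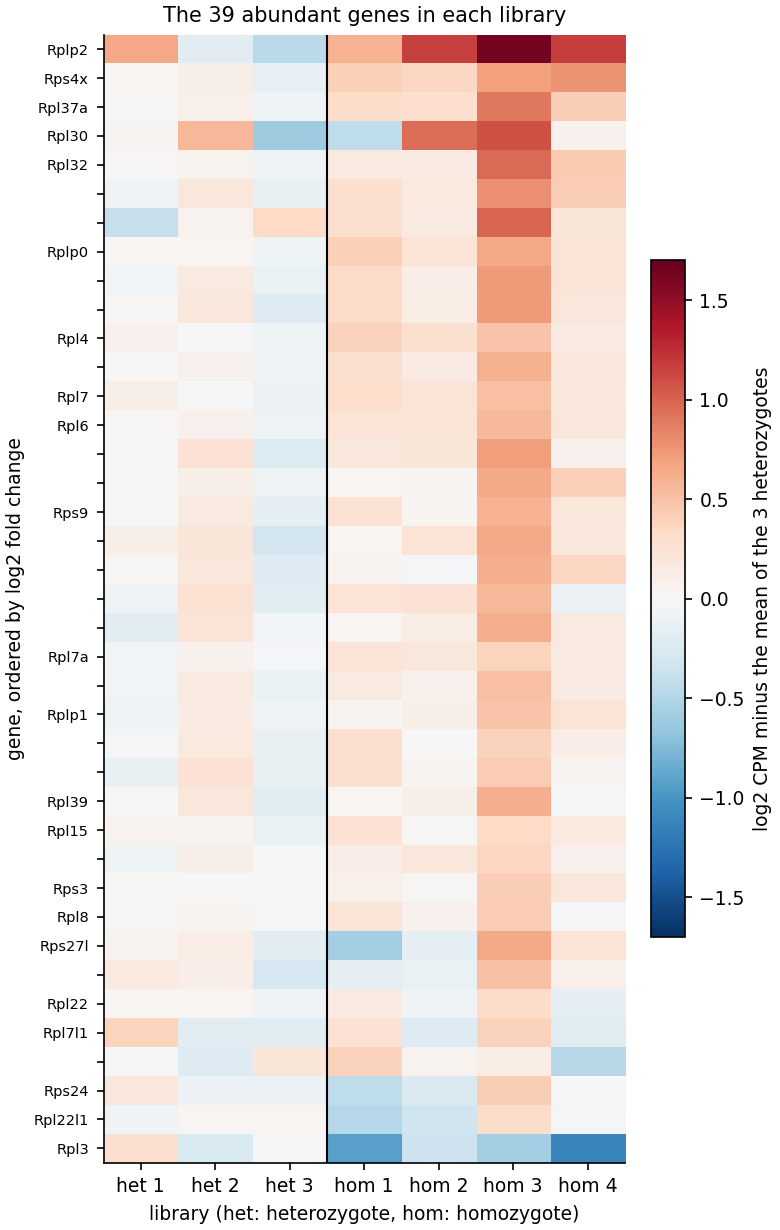
Log2 CPM of the 39 abundant genes in each of the 7 libraries, less the mean of the 3 heterozygotes, ordered by log2 fold change (red higher, blue lower). Rows are labelled for genes named in the text. The column of homozygote library 3 is red in nearly every row, and Rpl3 at the foot is blue in all 4 homozygotes.

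The leukocyte, cell cycle, spinal cord and mesenchyme lists had their highest mean in homozygote library 3. For leukocytes the list's mean log2 CPM was also higher in every homozygote library than in any heterozygote one. Over all genes tested, 7.75% had an unadjusted p below 0.05 (edgeR) with higher homozygotes and 4.88% with lower ones. Without both libraries 3 these were 627 and 439 of the 14379 genes then tested, and 12 of the 14379 were called. The leukocyte list had 19 of 20 genes in the table, all tested, and 17 of them had an unadjusted p below 0.05 with higher homozygotes; none was called. Its median log2 fold change was 4.03, and 2.27 without both libraries 3, where 17 again had such a p and 2 were called. Its summed level was 292 to 387 CPM in heterozygotes and 834, 1025, 5401 and 1167 CPM in homozygotes. In heterozygote library 3, 4 of the 19 were at 0 (Itgb2, Cx3cr1, C1qc and Mrc1), and elsewhere none was. Most of the heterozygote sum came from Coro1a, at 208 to 283 CPM.

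The cell cycle list had 25 of 25 genes tested, 7 with an unadjusted p below 0.05 and higher homozygotes, and summed to 1376 to 2150 CPM in heterozygotes and 1848 to 3375 CPM in homozygotes, highest in library 3. Its median was 0.50, and 0.26 without both libraries 3, with 3 at such a p. The sensory neuron list had 15 of 17 genes tested, 3 lower in homozygotes at an unadjusted p below 0.05, and summed to 25527 to 29540 CPM in heterozygotes and 14895 to 26463 CPM in homozygotes, lowest in library 3. Its median was -0.30, and -0.02 without both libraries 3.

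Spinal cord and mesenchyme markers also had their highest mean in homozygote library 3 and their lowest in heterozygote library 3. For spinal cord the list's mean log2 CPM was 2.29 in heterozygotes and 3.68 in homozygotes, 4.56 in library 3, with 8 of 10 tested genes above 0, 3 at an unadjusted p below 0.05 and a median log2 fold change of 1.23. The summed level does not show this, at 835 to 1123 and 625 to 1212 CPM, since Fabp7 alone took 478 to 1000 CPM. For mesenchyme the mean was 2.13 and 3.23, 4.4 in library 3, with 9 of 10 above 0, 1 at such a p, a median of 0.82 and sums of 63.4 to 256 and 132 to 466 CPM. The medians were 0.40 and 0.11 without both libraries 3. Glia and crest markers, with a median of -0.25, summed to 1710 to 2239 and 1277 to 2216 CPM. Erythroid genes summed to 0.696 to 115 and 8.65 to 42.9 CPM, with Epb4.2 at 0 in all libraries. The part of other cells in the ribosomal protein result was not tested.

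Genes of ribosome-bound proteins outside the symbol pattern were read in the same way. Gnb2l1 (Rack1), a scaffold on the small subunit, averaged 1109 ± 67.8 and 1260 ± 144 CPM (SD, n = 3 and 4; log2 fold change 0.18 ± 0.14, SE; adjusted p by edgeR 0.654). Fau, a fusion of a ubiquitin-like protein with a ribosomal protein, had 0.30 ± 0.31 and Rpsa, a small-subunit protein also known as a laminin receptor, 0.05 ± 0.28. Rpl36al had 13 counts over the 7 libraries and was not tested. None of the others passed the test. Gnb2l1 was at 0.06 without both libraries 3.

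Other parts of the translation machinery were read beside the group. For these lists too, the shares over all genes at an unadjusted p below 0.05 (edgeR) were 7.75% higher and 4.88% lower. Without both libraries 3 they were 627 higher and 439 lower of 14379 genes. Of 72 mitochondrial ribosomal protein genes tested of 75 in the table, 0 were called, 11 had an unadjusted p below 0.05 with higher homozygotes and none with lower ones, and the median log2 fold change was 0.10. Mrpl52 had 60.3, 21.5 and 42.0 CPM in heterozygotes and 80.2, 93.6, 135 and 108 CPM in homozygotes, without overlap (log2 fold change 1.34 ± 0.33, SE; adjusted p by edgeR 0.138; 0.00285 by DESeq2). Mrps22 gave 8.84 ± 1.21 and 21.8 ± 6.37 CPM, also without overlap (adjusted p = 0.146, edgeR; 0.00912 by DESeq2). Both belong to the ribosome of the mitochondrion, which is assembled apart from the cytoplasmic one. The list had 3 at such a p and a median of 0.05 without both libraries 3. Its mean log2 CPM was 5.537 to 5.669 in heterozygotes and 5.73 to 5.971 in homozygotes, highest in homozygote library 3.

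Of 44 translation factors, 0 were called, 5 had an unadjusted p below 0.05 with higher homozygotes and none with lower ones, and the median was 0.07. Eif6, which keeps large subunits from joining small ones too early, had 65.3 ± 20.2 and 109 ± 9.57 CPM (SD, n = 3 and 4) without overlap (log2 fold change 0.73 ± 0.22, SE; adjusted p by edgeR 0.188; 0.0368 by DESeq2). Eif1ax, a factor in the search for the start codon, was at 0.96 ± 0.30 (adjusted p = 0.209, edgeR; 0.0332 by DESeq2), with overlap. The median of the factors was 0.03 without both libraries 3, with 2 at such a p. Their mean log2 CPM was 7.364 to 7.447 in heterozygotes and 7.455 to 7.599 in homozygotes, highest in homozygote library 3.

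The 87 ribosome biogenesis genes tested of 90 listed had a median of -0.02, with 6 higher and 2 lower at an unadjusted p below 0.05 and 0 called. Rrp8, a nucleolar methyltransferase, had 17.9, 17.8 and 14.4 CPM in heterozygotes and 4.74, 6.46, 8.81 and 8.82 CPM in homozygotes. The groups were well apart (log2 fold change -1.21 ± 0.35, SE; adjusted p by edgeR 0.176; 0.0496 by DESeq2). Rrp1, which in yeast takes part in processing of the large subunit's RNA, was higher in every homozygote, at 0.50 ± 0.16 (SE). Its adjusted p was 0.22 by edgeR and 0.0587 by DESeq2.

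Small nucleolar RNAs guide modification of ribosomal RNA, and several of their host genes carry a TOP motif like the ribosomal protein genes. Of 9 host genes tested of 16 listed, 8 had a log2 fold change below 0 with a median of -0.66; 4 had an unadjusted p below 0.05 and 0 were called. Snhg3 ranged from 18 to 25.4 CPM in heterozygotes and from 4.16 to 12.5 CPM in homozygotes without overlap, at -1.38 ± 0.41 (SE). Its adjusted p was 0.188 by edgeR and 0.0524 by DESeq2. 1110038B12Rik had 108 ± 5.73 and 79.1 ± 10.1 CPM, also without overlap (adjusted p of 0.304 by edgeR and 0.236 by DESeq2). Homozygote library 1 was lowest in the list's mean, at 4.41 log2 CPM against 5.60 to 5.89 in heterozygotes, and homozygote library 3 was not at an extreme, at 5.25. The median was -0.81 without both libraries 3, with 3 at such a p. That of the biogenesis genes was then -0.04, with none higher and 1 lower at such a p.

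**Figure D5:**
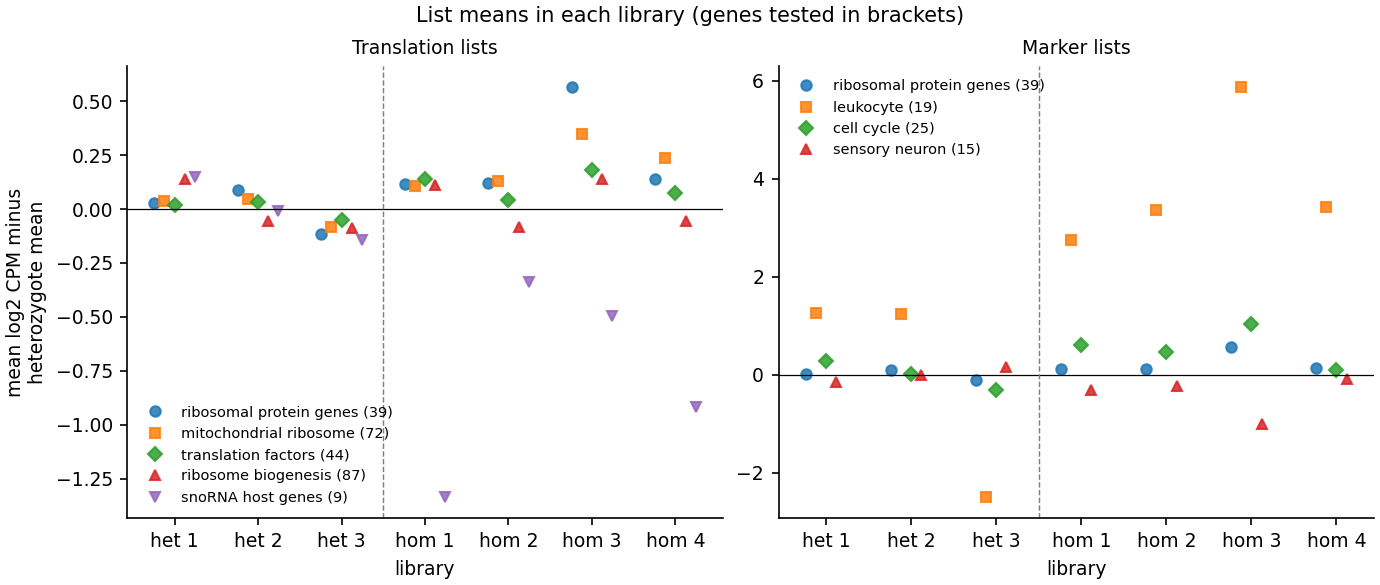
Mean log2 CPM of each list in each library less its mean over the 3 heterozygotes; left, the 39 abundant ribosomal protein genes with other lists of the translation machinery; right, the same genes with marker lists on a wider scale. Homozygote library 3 is highest for the ribosomal protein, mitochondrial ribosome, translation factor, leukocyte and cell cycle lists and lowest for the sensory neuron list. The snoRNA host genes lie below 0 in all 4 homozygotes.

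Among 28 growth regulators that act on ribosome production, 0 were called, 1 was higher and 2 were lower at an unadjusted p below 0.05, and the median was -0.10. The 2 related Myc factors, which drive transcription of ribosomal genes, went opposite ways. Mycn had 69.2, 107 and 69.1 CPM in heterozygotes and 56.6, 36.5, 35.9 and 41.2 CPM in homozygotes, without overlap, at -0.94 ± 0.24 (SE; adjusted p = 0.149, edgeR; 0.0188 by DESeq2). Myc had 29.2 ± 4.21 and 61.7 ± 30.2 CPM, with overlap, at 1.08 ± 0.40 (SE). Its adjusted p was 0.285 by edgeR and 0.0902 by DESeq2. The difference between Mycn and Myc was not tested. Medians without both libraries 3 were -0.04 for the growth regulators and 0.01 for the p53 targets.

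Targets of p53, which responds when ribosome assembly fails, were 21 tested of 26 listed, with 0 called, 1 higher at an unadjusted p below 0.05 and a median of 0.09. Pmaip1, which promotes cell death, had 1.33, 4.33 and 1.39 CPM in heterozygotes and 10.8, 5.91, 31.2 and 6.95 CPM in homozygotes, without overlap, at 2.55 ± 0.74 (SE; adjusted p = 0.177, edgeR; 0.0103 by DESeq2). Its highest value was again in homozygote library 3, and without both libraries 3 the log2 fold change was 1.48. Zmat3 was at -0.68 ± 0.31 (SE), with overlap, and its adjusted p was 0.403 by edgeR and 0.34 by DESeq2.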

How the data were processed

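The authors deposited 1 table with the raw count per gene and library, their log2 fold changes and their adjusted p-values (q-values), per the file headers. Per the submitters' processing notes, which assign no roles, TopHat 1.4.0, HTSeq, DESeq2 1.2.8 and build mm9 were used. Annotation, strand and the handling of multiply matching reads: not given in the sources used here. Reads were single-end from amplified cDNA, per the labels' protocols.

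Of 29777 genes, 10416 had 0 counts; filterByExpr (minimum count 10, minimum total 15) kept 14040. Genotypes were compared with edgeR 4.0.16 (TMM, glmQLFit, glmQLFTest, two-sided, R 4.3.3); standard errors are the log2 fold change over the square root of F. CPM is after TMM. Libraries of a genotype differed beyond counting error (chi-square over its degrees of freedom, 30.7 to 76.4). DESeq2 1.42.0, limma 3.58.1 (voom), other scalings and filters, a window of label dates and left-out libraries were alternatives; for heterozygote library 1, title and source name give months 1 and 11, and 11 was used. The main edgeR fit and the DESeq2 and limma fits were run on simulated counts.

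Members and lists were chosen with earlier results of these data known. Genes named were Runx3, called members, the 5 smallest p in each direction, the 5 most and 3 least abundant per length, the 3 highest and lowest fold changes among abundant members, a fixed set, and the 2 smallest p of each list; other names were added after their values were seen. Transcripts are the shortest complete principal ones of GENCODE M21 (GRCm38), aligned with bwa 0.7.19; symbols alone joined them to the mm9 counts. Results for a few members are not reported here.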

Additional observations from a re-analysis of the deposited data

Results flagged for a closer look

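Several of the quantities checked share genes, so they were not independent. Chance would flag about 1 in 20 independent ones. In 5 of the 51 checked, 1 of the 4 homozygote libraries stood far from the other 3. In each of the 5 that library was homozygote library 3, and it was the highest. The gap to its neighbour took 0.8848 of the range for the share of counts held by the ribosomal protein genes (2.014% beside 1.432% to 1.499%), 0.8864 for the mean log2 CPM of the 64 genes tested (5.95 beside 5.53 to 5.58), and 0.9429 for that of the 39 abundant genes (8.01 beside 7.55 to 7.58). For Rpl39 it took 0.8425 (88.7 CPM beside 56.7 to 61.8 CPM). Homozygote library 3 also stood apart in quantities that are not among these 5. Examples are the large-subunit share (1.042% beside 0.766% to 0.797%) and the leukocyte sum (5401 CPM beside 834 to 1167 CPM).

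Rpl39l had 16 counts in homozygote library 3 and none elsewhere, so the gap took the whole range (1.0).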

How the results depend on the processing

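No paired analysis was possible because the labels give no replicate numbers. No ribosomal protein gene was called under 18 of 19 other settings, and DESeq2 called 1 higher. Genes called of all tested, 7 as reported, numbered 668 by DESeq2, 61 with the adjusted quasi-dispersion, 80 with no count filter, 37 at a mean CPM of at least 5, 12 without both libraries 3, and 1 to 27 when each library was left out. Members without overlap were 10 to 26 higher and 1 to 5 lower when each library was left out; the lower ones were 2 of 76 with no count filter (all genes 5.06%), 4 of 63 in the window of dates (13.1%) and 8 of 64 without both libraries 3 (11.8%). Over all genes the shares ran from 8.18% to 12.1% higher and 7.52% to 10.5% lower when each library was left out. The window of dates leaves out homozygote libraries 1 and 3, the earliest and the latest by label date. It thus also lacks the library that stands apart and is no separate check of date. The members' median log2 fold change stayed above 0 under these settings. It was 0.22 to 0.25 under other tests, scalings and filters and 0.13 to 0.30 when each library was left out; without both libraries 3 it was 0.08, and for the window of dates 0.10. The difference in share ran from 0.172 to 0.369 percentage points when each library was left out and was 0.119 without both libraries 3.

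The direction of some genes turned, Rpsa outside the symbol pattern included, none of them called. In the window of dates Rpl22 was at -0.11 and Rpl7l1 at -0.23. Without both libraries 3, Rpl21 was at 0.15, Rpl22 at -0.0548, Rpl39 at -0.0562, Rps19 at 0.75, Rpl7l1 at -0.16 and Rps27l at -0.22. When each library was left out in turn, log2 fold changes ran from -0.0179 to 0.1411 for Rpl22, -0.2706 to 0.0188 for Rpl22l1, -1.0461 to 0.1347 for Rpl35, -0.0668 to 0.2799 for Rpl7l1, -0.9474 to 0.9899 for Rps19, -0.2207 to 0.0925 for Rps24, -0.2111 to 0.0109 for Rps27a, -0.1396 to 0.284 for Rps27l and -0.0036 to 0.1436 for Rpsa. The causes were not tested. Too few counts (6 to 71) left 12 members untested, and shared sequence limits what a low count means.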
